A study of Caenorhabditis elegans with 12 samples.

Results

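The aspartyl and cysteine protease genes of the asp, cpr, cpl and cpz families were followed in dauer-forming larvae of the nematode Caenorhabditis elegans. A gene was a member if its symbol was asp, cpr, cpl or cpz followed by a number. The rule used no measured value, but the families were chosen with earlier results of these data known. This rule took 29 of the 22113 genes in the tables, namely 18 asp, 8 cpr, 1 cpl and 2 cpz genes. Of these, 28 were annotated as protein-coding and asp-11 as a pseudogene. Enough reads for a test were found for 25 members. The other 4 were asp-11, asp-15, asp-18 and asp-19, with at most 6 estimated counts in any library and none at all for asp-19.

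Polyadenylated RNA was sequenced from whole larvae of 2 strains at 2 times, with 3 libraries in each of the 4 groups. One strain, CB1370, carried daf-2(e1370), a mutation of the insulin-like receptor gene that makes larvae enter dauer when warm. The other, LJ2703, carried the same daf-2(e1370) together with daf-42(ys54) and is called the double mutant here. Both were laid as synchronised embryos at 15 °C, raised at 25 °C and taken 52 h or 60 h after egg laying, in the late L2d stage that precedes dauer. Per the labels, the harvest of the double mutant at 60 h contained dead as well as living larvae, in a share that was not stated. Death and genotype cannot be told apart in that group. There was no wild-type group, and the labels do not say that the 3 libraries of a group came from separate cultures, so the p-values measure the spread between these libraries only.

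Aspartyl proteases of the cathepsin D type and cysteine proteases of the cathepsin B, L and Z types break down proteins in acidic compartments. In the worm they work in the gut lumen, where they digest bacterial food, and in the lysosomes and gut granules of many cells. Some have further roles, in yolk processing, in the shedding of old cuticle at a molt, and in the necrotic death of neurons. Dauer larvae do not feed, since the mouth is sealed and the gut is shrunken.

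Libraries held between 30011686 and 43519410 estimated counts. The mutated gene itself, daf-42, averaged 1647 ± 562 CPM (counts scaled to library size with TMM factors; SD, n = 3) in daf-2 at 52 h and 780 ± 97.0 CPM in the double mutant, a difference that did not pass the test (adjusted p = 0.838). At 60 h it ran from 532 to 1960 CPM and from 74.9 to 273 CPM, and was lower in the double mutant by a log2 fold change of -2.80 (SE 0.54, adjusted p = 0.00277). The labels do not describe the ys54 lesion, so its transcript level is a limited check of genotype. The intestine was present in every library, in that none of 10 intestinal marker genes was at 0 in any group. At 52 h their summed level was 611 to 624 TPM for daf-2 and 833 to 1003 TPM for the double mutant. The 60 h sums were 603 to 1310 TPM and 465 to 808 TPM. TPM is an abundance scaled by transcript length, so that different genes can be compared. Because whole animals were sequenced, the tissue that made each protease RNA was not measured, and fewer cells of a type cannot be told apart from less RNA per cell.

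Together the 29 members made up 1.07% to 1.14% of all TPM in daf-2 at 52 h, which was 10664 to 11354 TPM. The double mutant at 52 h had 10883 to 14812 TPM. At 60 h the sum was 3136 to 4904 TPM in daf-2 and 2967 to 5942 TPM in the double mutant. All 6 libraries at 60 h thus lay below all 6 at 52 h, while the genotypes overlapped at 60 h. The drop was seen in each class. The 18 asp genes summed to 3002 to 4427 TPM in daf-2 at 52 h and to 1495 to 2492 TPM at 60 h, and the 8 cpr genes to 3272 to 4001 TPM and then to 755 to 1178 TPM. These sums were not tested.

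**Figure D1:**
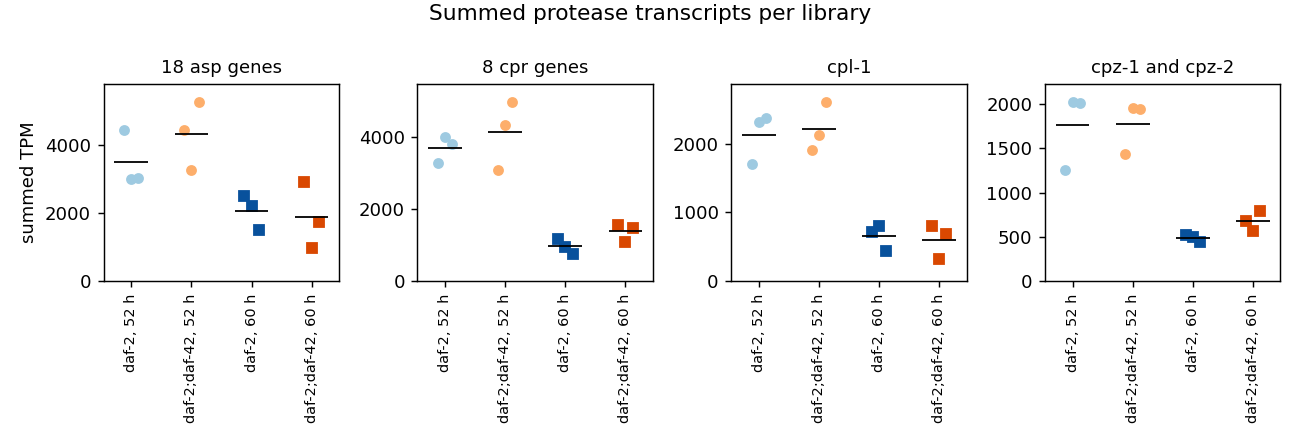
Summed TPM of the asp genes, the cpr genes, cpl-1, and the pair cpz-1 and cpz-2 in each library, by group; each point is 1 library and the line is the group mean of 3 libraries. In daf-2 every class is lower in all 3 libraries at 60 h than in any library at 52 h, for example cpl-1 at 442 to 806 TPM against 1707 to 2377 TPM.

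Levels covered several orders of magnitude. By mean TPM over the 12 libraries, the most abundant member was cpl-1, the cathepsin L gene, at 1403 TPM. It was followed by cpr-6, a cathepsin B-like gene, at 1321 TPM, and by cpz-1, a cathepsin Z gene needed for molting, at 1082 TPM. The leading aspartyl protease genes were asp-1, known as an intestinal protease, at 677 TPM and asp-6 at 636 TPM. Some neighbours in this order were not separated by the spread between libraries, and others were. In daf-2 at 52 h, cpl-1 had 2136 ± 373 TPM (SD, n = 3) and cpr-6 had 1923 ± 379.9 TPM, whereas asp-4 had 869 ± 21.9 TPM and asp-3, the next below it, 721 ± 34.1 TPM. At the low end, asp-12, cpr-2, asp-7, cpr-8 and asp-17 averaged under 3 TPM, with asp-17 at 0.377 TPM. The order was not fixed, because asp-9 averaged 1.29 TPM in daf-2 at 52 h and 478 TPM at 60 h.

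**Figure D2:**
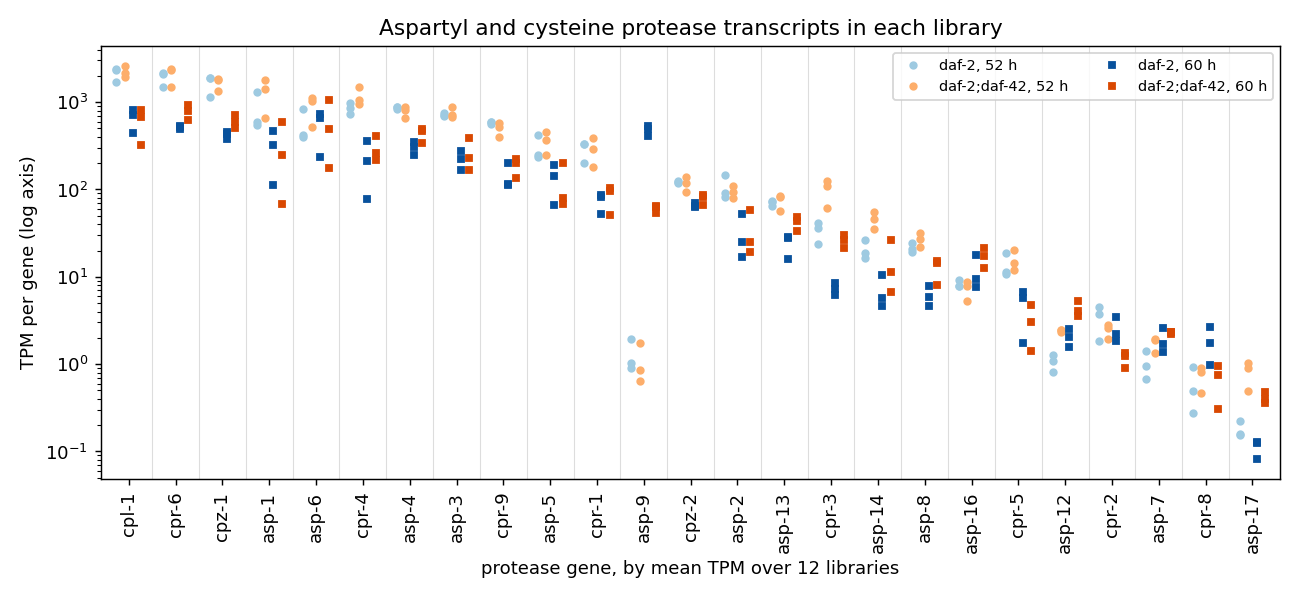
TPM of the 25 tested members in each of the 12 libraries on a log axis, ordered by mean TPM, with circles for 52 h, squares for 60 h, blue for daf-2 and orange for daf-2;daf-42. Most genes have their squares below their circles, and asp-9 has its circles near 1 TPM and its squares at 53.1 to 536 TPM.

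The first comparison asked how the family changed as daf-2 larvae went from 52 h to 60 h. In daf-2, 20 of the 25 tested members changed, against 34.7% of all 16371 tested genes. The great majority fell: 16 members were lower at 60 h, where the background was 16.2% of genes, and 4 were higher, where it was 18.5%. The median log2 fold change was -1.40 over the members and 0.07 over all tested genes. The falls included 6 of the 8 cpr genes, all 3 of cpl-1, cpz-1 and cpz-2, and 7 of the 14 tested asp genes, from -0.78 for cpz-2 to -2.09 for cpr-3. The 4 risers were asp-9, cpr-8, asp-12 and asp-7.

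Among the cysteine proteases, cpl-1 stood at 1949, 2464 and 2538 CPM in the daf-2 libraries at 52 h and at 819, 798 and 631 CPM at 60 h. The double mutant had 2301, 2251 and 2672 CPM at 52 h and 1047, 594 and 1071 CPM at 60 h. In both genotypes all libraries at 60 h were below all libraries at 52 h, and the genotypes overlapped at each time. The fall was -1.63 in daf-2 (SE 0.29, adjusted p = 0.000795) and -1.41 in the double mutant (SE 0.28, adjusted p = 0.00296) on the log2 scale.

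The cathepsin Z gene cpz-1 gave 1093, 1692 and 1694 CPM in daf-2 at 52 h and 439, 357 and 458 CPM at 60 h. Its values in the double mutant were 1353, 1622 and 1540 CPM at 52 h and 646, 760 and 933 CPM at 60 h. In both genotypes all 60 h libraries lay below the 52 h libraries, and at 60 h the double mutant lay above daf-2 with no overlap. Reads could be shared with similar sequences in 2 libraries for this gene. The log2 fold change over time was -1.84 in daf-2 (SE 0.27, adjusted p = 0.000216) and -0.95 in the double mutant (SE 0.26, adjusted p = 0.0143).

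A like course was seen for cpr-6, with 1829, 2480 and 2429 CPM in daf-2 at 52 h and 639, 563 and 763 CPM at 60 h. The double mutant had 1922, 2650 and 2618 CPM, then 1108, 1224 and 1585 CPM. Here too the 52 h genotypes overlapped and the 60 h genotypes did not. The time change of cpr-6 was -1.78 in daf-2 (SE 0.27, adjusted p = 0.000317) and -0.88 in the double mutant (SE 0.27, adjusted p = 0.0222). Its call in the double mutant was lost in 5 of 21 alternatives, among them the fit of only the 2 groups compared.

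Among the cathepsin B-like genes with the steepest falls was cpr-4, whose product is known as a secreted signal in irradiated worms. It gave 1040, 843 and 725 CPM in daf-2 at 52 h and 384, 196 and 104 CPM at 60 h. The double mutant gave 1062, 1040 and 1430 CPM and then 503, 438 and 316 CPM. The 60 h libraries lay below the 52 h libraries in both strains, and the daf-2 libraries at 60 h were spread 3.68-fold between the lowest and the highest. The log2 fold change was -1.93 in daf-2 (SE 0.41, adjusted p = 0.00281) and -1.49 in the double mutant (SE 0.40, adjusted p = 0.0133).

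For cpr-9, daf-2 had 799, 771 and 783 CPM at 52 h and 287, 139 and 207 CPM at 60 h. The double mutant had 588, 680.0 and 728 CPM and then 357, 305 and 389 CPM. The double mutant was the lower strain at 52 h and the higher one at 60 h, in both cases with no overlap between libraries, although the 52 h difference of -0.24 did not pass the test (adjusted p = 1.00). Over time cpr-9 changed by -1.90 in daf-2 (SE 0.27, adjusted p = 0.000188) and by -0.93 in the double mutant (SE 0.26, adjusted p = 0.0169).

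The less abundant cpr-5 gave 21.5, 12.3 and 11.6 CPM in daf-2 at 52 h and 7.87, 5.75 and 2.57 CPM at 60 h. The double mutant gave 17.8, 12.9 and 21.1 CPM, then 6.33, 2.64 and 4.87 CPM. The 2 strains overlapped at both times. Among the 16 members called lower in daf-2, it was 1 of 2, with asp-5, whose value was lower still in the double mutant. There cpr-5 fell by 1.90 on the log2 scale (SE 0.42, adjusted p = 0.00482) against 1.49 in daf-2 (SE 0.41, adjusted p = 0.0132). That contrast between the strains was not called (adjusted p = 0.626).

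Of the remaining cysteine protease genes, cpr-1, known as a gut cysteine protease gene, fell by 1.87 in daf-2 and by 1.29 in the double mutant on the log2 scale. The second cathepsin Z gene, cpz-2, fell by 0.78 in daf-2, and its value of -0.08 in the double mutant did not pass the test. cpr-2 had values of -0.33 and -0.50, neither of which passed.

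One cysteine protease gene went the other way in daf-2. This was cpr-8, with 0.277, 0.520 and 0.488 CPM at 52 h and 1.02, 2.34 and 1.74 CPM at 60 h. The double mutant had 0.455, 0.620 and 0.861 CPM at 52 h and 0.328, 1.15 and 1.11 CPM at 60 h. The 60 h libraries were above the 52 h libraries in daf-2 and mixed with them in the double mutant. These levels rest on 10 to 75 counts per library. In daf-2 cpr-8 rose by 1.99 (SE 0.47, adjusted p = 0.00569), while 0.41 in the double mutant did not pass (adjusted p = 0.486), and the test of the difference did not pass either (-1.58, SE 0.66, adjusted p = 0.121).

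**Figure D3:**
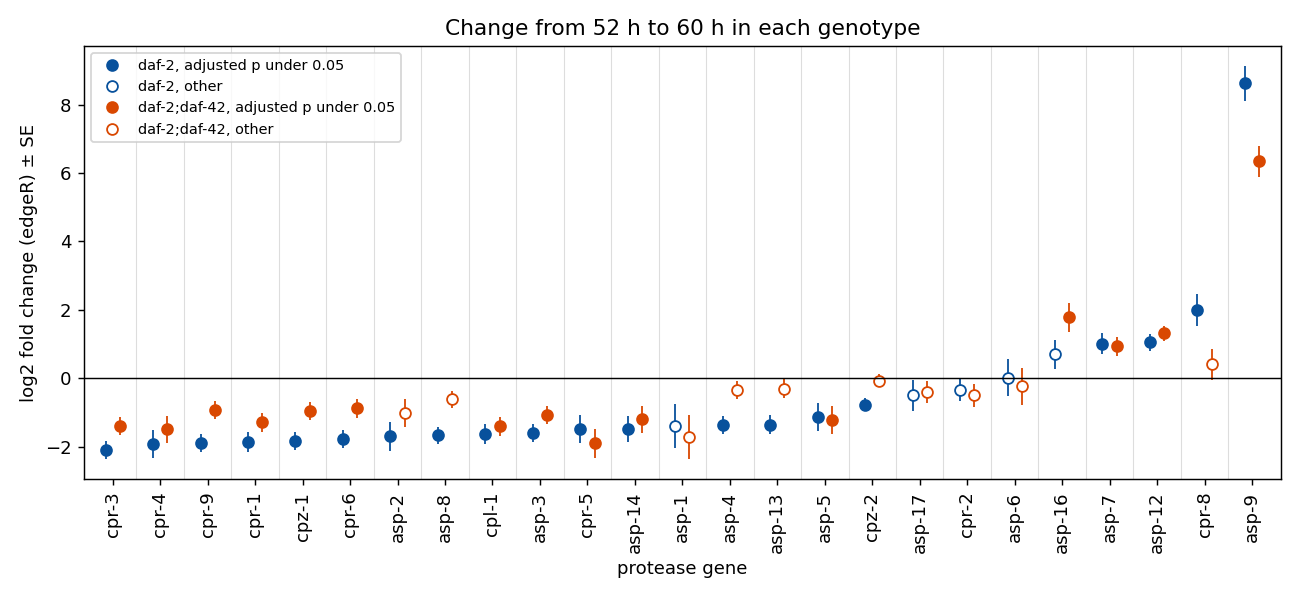
The log2 fold change from 52 h to 60 h with its SE for the 25 tested members in daf-2 (blue) and daf-2;daf-42 (orange), ordered by the change in daf-2; filled points had an adjusted p under 0.05. In daf-2 16 members are filled below 0 and 4 above it, and in the double mutant 11 below and 4 above.

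Among the aspartyl proteases, asp-9 had the largest change of any member. In daf-2 it gave 2.17, 1.07 and 0.948 CPM at 52 h and 466, 521 and 685 CPM at 60 h. Its values in the double mutant were 1.01, 0.670 and 1.77 CPM at 52 h and 68.2, 115 and 98.0 CPM at 60 h. Expression was low in all 6 libraries at 52 h, with 27 to 86 counts in each, and high in all 6 at 60 h, where the double mutant stayed below every daf-2 library. The rise was 8.63 on the log2 scale in daf-2 (SE 0.51, adjusted p = 2.65e-07), which is 397-fold, and 6.34 in the double mutant (SE 0.46, adjusted p = 2.83e-06), which is 81.1-fold. It is the only member on chromosome IV (6185889 to 6189324, plus strand, WBcel235), whereas 23 members are on chromosome V.

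The intestinal protease gene asp-1 gave 1733, 673 and 737 CPM in daf-2 at 52 h and 629.8, 375 and 186 CPM at 60 h. The double mutant gave 1948, 805 and 2119 CPM and then 885, 142 and 456 CPM. All 3 libraries of daf-2 at 60 h were below the 3 at 52 h, and in the double mutant the times overlapped. The log2 fold change was -1.40 in daf-2 (SE 0.65, adjusted p = 0.116) and -1.72 in the double mutant (SE 0.65, adjusted p = 0.0519), so neither passed the test. The change in the double mutant was called in 9 of 21 alternatives, among them DESeq2 (adjusted p = 0.0133) and the replicate block (-1.93, adjusted p = 0.0159). Within a group, the highest library exceeded the lowest by 2.58-fold to 6.23-fold.

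Like asp-1, asp-6 was spread widely, with 1030, 479 and 459 CPM in daf-2 at 52 h and 912, 715 and 368 CPM at 60 h. The double mutant gave 1446, 594 and 1137 CPM and then 1485, 349 and 854 CPM. The times overlapped in both strains, and the log2 fold changes of 0.02 (SE 0.53) and -0.24 (SE 0.53) did not pass. In daf-2 at both times and in the double mutant at 60 h, replicate 1 was the highest library for each of asp-1, asp-2, asp-5 and asp-6. The median SD of log2 CPM over the members within a group was 0.363, 0.262, 0.520 and 0.377 in daf-2 at 52 h, the double mutant at 52 h, daf-2 at 60 h and the double mutant at 60 h, against 0.184, 0.206, 0.363 and 0.374 over all genes.

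The cathepsin D-like genes asp-3 and asp-4, which are known to act in necrotic neuron death, were chosen for mention after their values were seen. On the log2 scale asp-3 fell by 1.61 in daf-2 and by 1.07 in the double mutant. In daf-2 asp-4 fell by 1.37, and its value of -0.34 in the double mutant did not pass the test. The other asp genes that fell in daf-2 were asp-2, asp-5, asp-8, asp-13 and asp-14, from -1.14 for asp-5 to -1.70 for asp-2. The calls of asp-5 and asp-7 were both lost when replicate 1 or 2 of the daf-2 libraries at 52 h, or replicate 2 or 3 of those at 60 h, was left out. That of cpr-5 was lost without the first of these. In all, the asp-5 call (adjusted p = 0.0484) was lost in 8 of 21 alternatives, and that of asp-7 in 4.

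In the double mutant, 15 of the 25 members changed from 52 h to 60 h, against 41% of all tested genes. Of these 11 were lower, where the background was 18.6%, and 4 were higher, where it was 22.4%. The median was -0.88 over the members and 0.00 over all genes. The lower members were 6 cpr genes, cpl-1, cpz-1, asp-3, asp-5 and asp-14, and the higher ones were asp-9, asp-16, asp-12 and asp-7. The number called was 9 without replicate 3 of the double mutant at 52 h. Over all tested genes this change went with transcript length (Spearman rho of -0.54), and the part of length in these calls was not tested. By limma on log2 TPM the split was 3 higher and 19 lower, with medians of -1.39 over the members and -0.40 over all genes, 50.1% of which were called.

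The 2 time comparisons share no library. In all, 14 members were called in both, 11 lower in both, 3 higher in both and none in opposite directions. Of all tested genes, 17.9% were called in both, 6.69% lower in both, 10.5% higher in both and 0.641% in opposite directions. In daf-2 but not in the double mutant, 6 were called (asp-2, asp-4, asp-8, asp-13, cpr-8 and cpz-2), and asp-16 alone was called in the double mutant but not in daf-2. Of all tested genes, 34.7% were called in daf-2 and 41% in the double mutant, with the 17.9% called in both counted in each. With the replicate number as a block, asp-2 (-1.13, adjusted p = 0.00889) and asp-8 (-0.64, adjusted p = 0.0377) were called lower in the double mutant too, as they were by DESeq2. The limma fit on log2 TPM called 50.1% of all genes there, with a median of -0.40 over all genes. In it asp-2 and asp-8 were again called lower. So were asp-4 (-0.86, adjusted p = 0.00676), asp-13 (-0.82, adjusted p = 0.0186) and cpz-2 (-0.58, adjusted p = 0.0155) in that fit. The gene asp-16 had 8.90, 8.33 and 9.86 CPM in daf-2 at 52 h and 10.9, 7.59 and 25.4 CPM at 60 h. Double mutant levels were 10.5, 8.21 and 5.43 CPM and then 16.4, 39.3 and 27.4 CPM. The 60 h libraries stood clear of the 52 h libraries in the double mutant only, where the log2 fold change was 1.78 (SE 0.43, adjusted p = 0.00747), and in daf-2 replicate 3 alone was high (0.70, SE 0.42, adjusted p = 0.223). The test of the difference gave an adjusted p of 0.207. In neither strain were asp-1, asp-6, asp-17 and cpr-2 called, with the exceptions for asp-1 given above. By limma on log2 TPM, asp-17 (-0.49, adjusted p = 0.0209) and cpr-2 (-0.82, adjusted p = 0.0349) were also called lower in the double mutant.

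The second question was whether the double mutant differed from daf-2 at 52 h, where the labels mention no dead larvae. At 52 h, 3 of the 25 members differed between the strains, against 0.635% of all tested genes. All 3 were higher in the double mutant, where the background was 0.44%, and none was lower, where it was 0.195%. At an unadjusted p under 0.05 there were 5 members, but the share of all genes at that threshold was not computed. The median difference was 0.09 over the members and 0.00 over all genes. The 3 were cpr-3, asp-17 and asp-12, none of which is among the abundant members. Background knowledge ties cpr-3 and asp-17 together, as protease genes driven by the transcription factor ZIP-10 in worms that die after a cold shock.

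The cathepsin B-like gene cpr-3 gave 31.6, 50.8 and 44.6 CPM in daf-2 at 52 h and 86.4, 156 and 131 CPM in the double mutant. The 60 h libraries gave 11.5, 8.27 and 10.2 CPM in daf-2 and 40.2, 45.1 and 55.6 CPM in the double mutant. Every library of the double mutant was above every daf-2 library of the same time, and in each strain the 60 h libraries lay below those of 52 h. The double mutant at 60 h overlapped daf-2 at 52 h. The difference between strains was 1.55 at 52 h (SE 0.26, adjusted p = 0.0148) and 2.23 at 60 h (SE 0.27, adjusted p = 0.000100), or 2.93-fold and 4.71-fold. The falls over time were -2.09 in daf-2 (SE 0.26, adjusted p = 7.90e-05) and -1.40 in the double mutant (SE 0.26, adjusted p = 0.00175).

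For asp-17, daf-2 had 0.176, 0.231 and 0.163 CPM at 52 h and the double mutant had 0.585, 1.07 and 0.909 CPM. At 60 h the values were 0.0925, 0.125 and 0.176 CPM in daf-2 and 0.459, 0.868 and 0.623 CPM in the double mutant. The strains did not overlap at either time. These levels are near the limit of detection, with 3 to 8 counts per daf-2 library and 14 to 43 in the double mutant. The difference was 2.16 at 52 h (SE 0.38, adjusted p = 0.0205) and 2.26 at 60 h (SE 0.41, adjusted p = 0.00187), and no change over time passed the test (-0.50 in daf-2, -0.40 in the double mutant).

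The aspartyl protease gene asp-12 gave 1.64, 1.21 and 0.948 CPM in daf-2 at 52 h and 3.12, 2.93 and 2.75 CPM in the double mutant. By 60 h the levels were 3.21, 2.19 and 2.49 CPM in daf-2 and 7.68, 8.13 and 6.12 CPM in the double mutant. It was higher in the double mutant at both times and higher at 60 h in both strains, each time with no overlap, so that daf-2 at 60 h lay near the double mutant at 52 h. The strains differed by 1.20 at 52 h (SE 0.24, adjusted p = 0.0401) and by 1.47 at 60 h (SE 0.23, adjusted p = 0.000642). Over time it rose by 1.05 in daf-2 (adjusted p = 0.00438) and by 1.32 in the double mutant (adjusted p = 0.00113).

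The calls at 52 h depended on single libraries. The number called was 1 without replicate 1 or replicate 2 of daf-2, 2 without replicate 1 of the double mutant, and 0 without replicate 3 of daf-2, replicate 2 of the double mutant or replicate 3 of the double mutant, all at 52 h. The difference itself stayed between 1.36 and 1.76 for cpr-3, 1.97 and 2.36 for asp-17, and 1.03 and 1.44 for asp-12 in the fits that left out a library. The asp-12 call was also lost with scaling to library size alone, with only the 2 groups compared, and with limma on log2 TPM. It was lost without replicate 1 or replicate 3 of the double mutant at 60 h too, and in 10 of 21 alternatives in all.

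**Figure D4:**
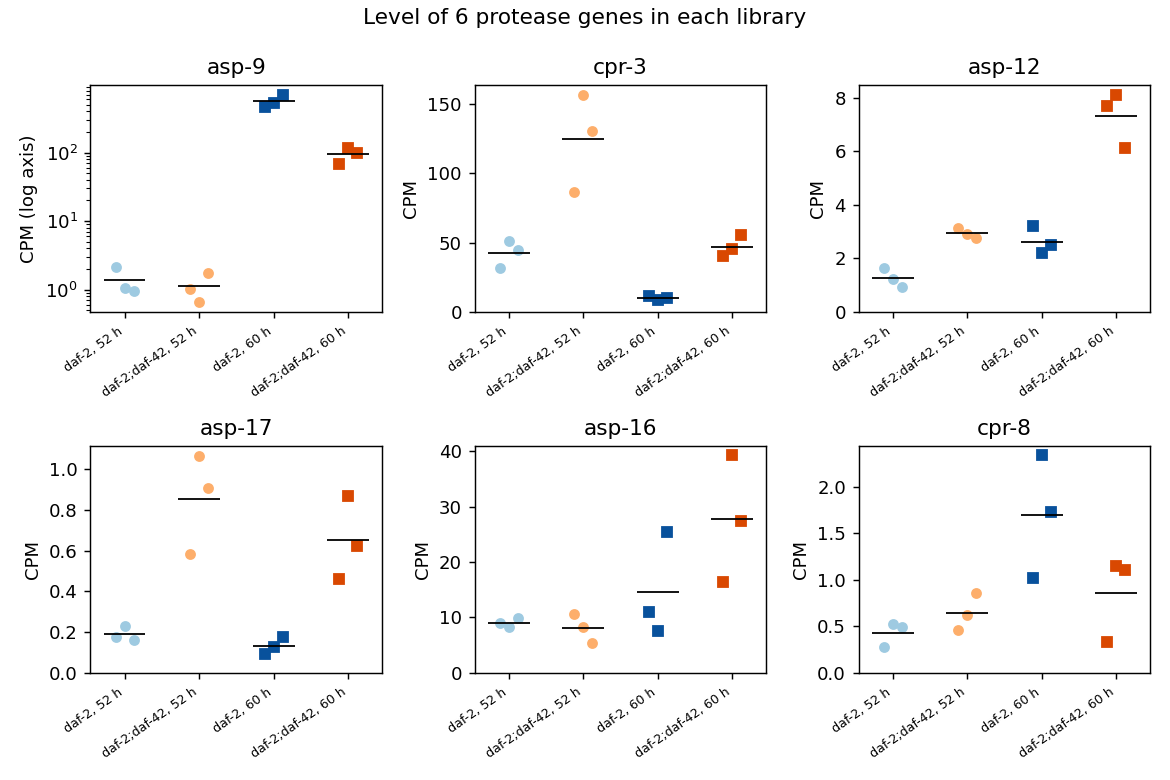
CPM of asp-9 (log axis), cpr-3, asp-12, asp-17, asp-16 and cpr-8 in each library, by group; each point is 1 library and the line is the group mean of 3 libraries. For cpr-3, asp-12 and asp-17 the double mutant lies above daf-2 at both times, and for asp-9 it lies below daf-2 at 60 h.

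At 60 h, when the double mutant held dead larvae, 12 of the 25 members differed between the strains, against 34.4% of all tested genes. Of these 11 were higher in the double mutant, where the background was 17.4%, and 1, asp-9, was lower, where the background was 17%. The median was 0.71 over the members and -0.01 over all genes. The 11 were asp-17, cpr-3, asp-12, asp-14, asp-8, asp-13, cpr-6, cpz-1, asp-4, cpr-9 and cpz-2, from 2.26 for asp-17 to 0.63 for cpz-2. The libraries of the 2 strains did not overlap for the 12 called members, nor for 85.1% of all genes called in this comparison. The call of cpr-9 (adjusted p = 0.0474) was lost in 13 of 21 alternatives. On the scale of log2 TPM, tested with limma, the split was 5 higher and 3 lower, with medians of 0.26 over the members and -0.32 over all genes. That fit called 37.2% of all genes, so the 8 members called there were no more frequent than genes at large. In it asp-9, cpr-3, asp-17, asp-12, asp-13 and asp-8 kept their calls, and cpr-2 and cpr-8 were called lower.

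The deficit of asp-9 in the double mutant was -2.57 (SE 0.38, adjusted p = 0.000515), a level 0.168 times that of daf-2, and it was called in every fit tried. Among the higher genes, cpr-3, asp-17, asp-12 and asp-8 were called in every fit tried. The larger sets of calls were less steady: 5 members were called when only the 2 groups at 60 h were fitted, 7 when replicate 2 of the daf-2 libraries at 60 h was left out, and 7 when replicate 3 of the double mutant at 60 h was. Over all tested genes the log2 difference at 60 h went with transcript length (Spearman rho of -0.46 over genes, which are not independent). The tested members were 1007 to 1564 bases long with a median of 1249, near the median of 1209 for all tested genes. All 12 calls were kept with an offset fitted to the length trend. Such an offset shifts genes near the median length little, so the part of length in these calls was not tested by it.

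The aspartyl protease gene asp-14 was the last of the 5 members with the largest called differences at 60 h. It gave 30.7, 17.5 and 20.4 CPM in daf-2 at 52 h and 55.2, 38.0 and 57.7 CPM in the double mutant. The later libraries gave 12.1, 5.81 and 6.64 CPM in daf-2 and 35.3, 12.3 and 17.9 CPM in the double mutant. The strains did not overlap at either time, but at 60 h the lowest library of the double mutant lay just above the highest of daf-2. The difference was 1.14 at 52 h, which did not pass (SE 0.39, adjusted p = 0.430), and 1.41 at 60 h (SE 0.39, adjusted p = 0.0177). That second call was lost when replicate 2 of the daf-2 libraries at 60 h was left out, with only the 2 groups compared, and by limma on log2 TPM.

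For the abundant lysosomal-type genes given above, the strain difference at 60 h was 1.00 for cpr-6 (SE 0.27, adjusted p = 0.0152), 0.90 for cpz-1 (SE 0.26, adjusted p = 0.0209) and 0.87 for asp-4 (SE 0.27, adjusted p = 0.0287). Each of these calls was lost by limma on log2 TPM, with only the 2 groups compared, and without replicate 3 of the double mutant at 60 h. The strain difference of cpl-1, at 0.27, did not pass (SE 0.28, adjusted p = 0.457), nor did asp-1 at 0.32, asp-6 at 0.43 or asp-3 at 0.60 (adjusted p = 0.0826). Intestinal markers moved in both directions at 60 h, with 3 of 10 higher and 3 lower in the double mutant (mtl-2 at 2.10, ges-1 at 0.87 and elt-7 at 0.73, against pho-1 at -0.91, ifb-2 at -1.72 and ifc-2 at -2.27). Their part in the protease differences was not tested. Body wall muscle markers were lower for 2 of 6, with a median of -1.06, and germline markers for 4 of 6, with a median of -1.14. Of 7 hypodermis markers, 1 was higher and 2 were lower, with a median of -0.64. Among 7 neuron markers 1 was lower (median -0.07), and of 6 pharynx markers none was called (median -0.45). Over all tested genes, 17.4% were higher and 17% lower in this comparison.

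**Figure D5:**
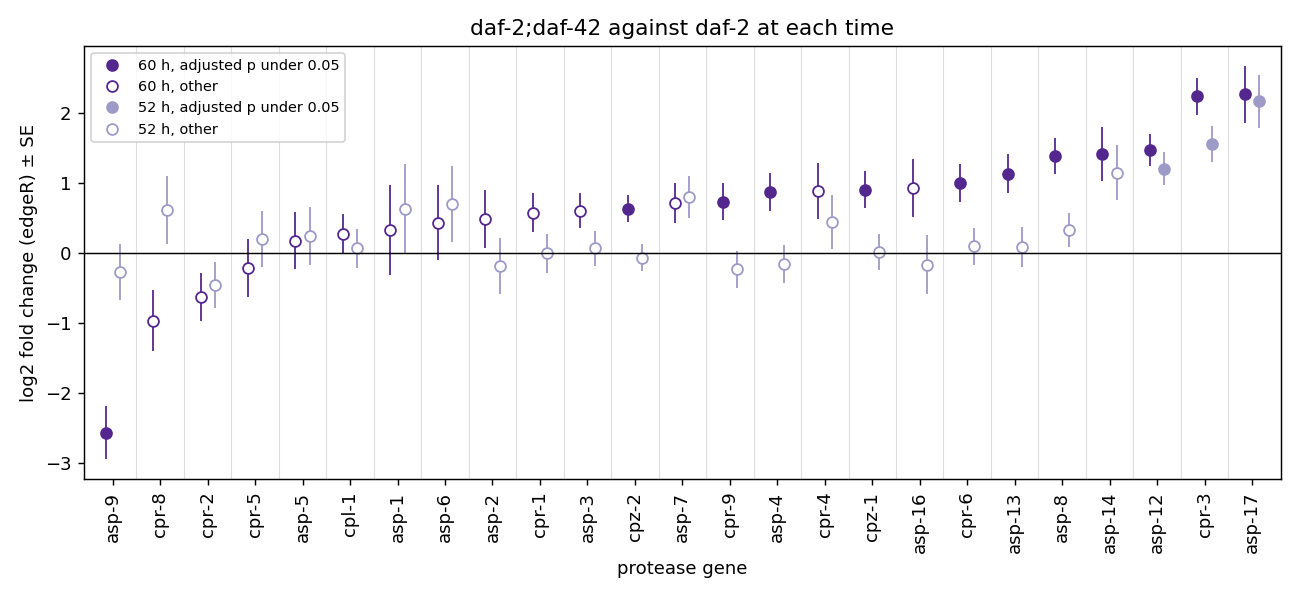
The log2 fold change of daf-2;daf-42 over daf-2 with its SE at 60 h (dark) and 52 h (light) for the 25 tested members, ordered by the 60 h value; filled points had an adjusted p under 0.05. At 60 h 11 members are filled above 0 and asp-9 is filled below it, and at 52 h asp-12, cpr-3 and asp-17 are filled.

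The third question was whether the time course itself differed between strains, which the genotype by time interaction tests. Only 1 of the 25 members was called, against 9.52% of all tested genes. None was higher, where the background was 5.58%, and asp-9 was lower, where it was 3.94%. At an unadjusted p under 0.05 there were 9 members, but the share of all genes at that threshold was not computed. For asp-9 the rise was smaller in the double mutant by 2.29 on the log2 scale (SE 0.55, adjusted p = 0.0253). The call was lost when replicate 2 or 3 of the 52 h daf-2 libraries, or replicate 3 of the double mutant at either time, was left out, and the value ran from -2.76 to -1.76 over the fits that left out a library. At 52 h asp-9 had few counts, so the size of its rise in each strain rests on a low starting level.

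The median interaction was 0.44 over the members and 0.04 over all genes. These medians were 0.28 and 0.03 with the length offset, and 0.13 and -0.29 by limma on log2 TPM. Over all tested genes the interaction went with transcript length (Spearman rho of -0.50). Of the 16 members that fell in daf-2, 14 had a less negative value in the double mutant, near the 88.8% of all genes called lower in daf-2, and none of these differences passed the test. The 3 nearest to passing, picked after their values were seen, were asp-8 at 1.06 (SE 0.35, adjusted p = 0.0686), asp-4 at 1.03 (adjusted p = 0.0911) and asp-13 at 1.05 (adjusted p = 0.0942). DESeq2 called 8 members in the interaction, the 7 others being asp-4, asp-8, asp-13, cpr-6, cpr-9, cpz-1 and cpz-2, all with positive values. That tool called 20.8% of all genes in the interaction, and 14.7% of its calls on simulated counts for genotype at 60 h were false. Those counts were drawn with edgeR's estimates of spread and with 200 of 16097 genes changed. The interaction was not scored there, so that share need not hold for it. The number was 5 with the length offset, which called 15.2% of all genes, 6 when replicate 3 of the daf-2 libraries at 60 h was left out, and 0 with a term for the replicate number.

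Several members sit side by side on chromosome V, and neighbours did not always move alike. The divergent pair cpr-5 and cpr-8 is separated by 565 bases (cpr-5 from 1132598 to 1134036 on the minus strand, cpr-8 from 1134602 to 1139182 on the plus strand, WBcel235). In daf-2, cpr-5 fell by 1.49 and cpr-8 rose by 1.99. The genes asp-8 and asp-7 lie on the same strand 353 bases apart, and asp-8 fell by 1.67 while asp-7 rose by 1.01. In the group asp-6, asp-12, asp-5 and asp-11, gaps were 272, 328 and 308 bases, and asp-12 rose by 1.05 and asp-5 fell by 1.14 in daf-2. Further along, asp-17, asp-16, asp-15 and asp-1 are separated by 1707, 609 and 4708 bases on the minus strand. Over time asp-16 rose in the double mutant, while asp-1 had the value of -1.72 given above. The exons of asp-2, asp-4 and cpz-2 share 74, 33 and 59 bases with genes on the opposite strand (inx-10, R12H7.4 and gcy-34). The kit keeps the strand, but whether the counting used it is not given in the sources used here.

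Genes that work with these proteases were taken from lists made for this family, with earlier results of these data known. Their values come from the edgeR fit without the length offset, and the part of transcript length in them was not tested. Both cystatin genes, whose products inhibit cysteine proteases, were measured. In CPM, cpi-1 stood at 103, 90.4 and 96.3 in daf-2 at 52 h, and at 99.8, 112 and 113 in the double mutant. By 60 h it stood at 99.97, 72.8 and 165 in daf-2 and at 311, 691 and 497 in the double mutant. The first 3 groups overlapped, and all 3 libraries of the double mutant at 60 h lay above them. There it was higher than in daf-2 by 2.15 (SE 0.33, adjusted p = 0.000682), and its change over time differed between strains by 1.99 (SE 0.46, adjusted p = 0.0216). The second cystatin gene, cpi-2, rose over time in the double mutant by 1.14 (adjusted p = 0.0188), and its strain difference at 60 h of 0.53 did not pass (adjusted p = 0.217).

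The factors known to control some of these genes were listed as zip-10, isy-1, daf-16, hlh-30 and pqm-1. Of these 5, the double mutant had 2 higher and 1 lower at 60 h, where 17.4% of all genes were higher and 17% lower. None of the 5 passed the test at 52 h. The transcription factor gene zip-10 gave 33.5, 28.1 and 23.9 CPM in daf-2 at 52 h and 37.0, 36.0 and 24.6 CPM in the double mutant. The 60 h values were 15.8, 11.8 and 16.9 CPM in daf-2 and 82.3, 97.0 and 88.0 CPM in the double mutant. The strains overlapped at 52 h and were far apart at 60 h, with a difference of 0.19 at the first time (SE 0.21, adjusted p = 1.00) and 2.58 at the second (SE 0.22, adjusted p = 9.51e-06). Its change over time was -0.94 in daf-2 and 1.45 in the double mutant, and these differed by 2.39 (SE 0.30, adjusted p = 0.000866). Of the others, isy-1, the splicing factor gene known to restrain zip-10, was higher at 60 h by 0.72 (adjusted p = 0.0273), and daf-16, the forkhead factor gene downstream of daf-2, was lower by 1.11 on the log2 scale (adjusted p = 0.0175). The values of -0.84 for hlh-30, a TFEB-type regulator of lysosomal genes, and 0.48 for pqm-1 did not pass.

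Of 20 listed genes for lysosomal proteins other than proteases, 9 fell and none rose in daf-2 over time, with a median of -0.47, where 16.2% of all genes fell. The double mutant had 8 that fell and 2 that rose, with a median of -0.48, where 18.6% of all genes fell and 22.4% rose. Between strains at 60 h, the double mutant had 3 at a higher and 1 at a lower level, with a median of 0.08, no more often than the 17.4% and 17% of all genes. The higher ones were gba-2, a glucocerebrosidase-like gene, at 3.04, ppt-1, the palmitoyl-protein thioesterase gene, at 1.03, and glo-1, a gut granule Rab gene, at 0.69. The gene aagr-1, for an acid alpha-glucosidase-related protein, was at -0.95. Of 21 vacuolar ATPase genes, whose pump acidifies the compartments these proteases need, 2 rose and none fell in daf-2 over time, with a median of 0.24, against 18.5% of all genes that rose. The double mutant had 5 that rose and 1 that fell, with a median of 0.26, near the 22.4% of all genes that rose, and at 60 h 1 was lower than in daf-2 and none higher.

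Calpains and calcium-release genes act upstream of cathepsins in worm necrosis. Of 5 such genes, 3 were lower in the double mutant at 60 h and none higher, with a median of -1.37, where 17% of all genes were lower. These were clp-1, a calpain gene, at -1.69, itr-1, the inositol trisphosphate receptor gene, at -1.37, and unc-68, the ryanodine receptor gene, at -1.97. The calreticulin gene crt-1, at 0.18, and tra-3, at -0.34, did not pass. None of the 5 passed the test at 52 h. Of 6 body wall muscle markers, 2 were also called lower, unc-54 at -2.17 and unc-15 at -1.64. The other markers were myo-3 at -1.51, mup-2 at -0.61, hlh-1 at -0.05 and unc-27 at 0.04, and none of these passed. Replicate 2 of the daf-2 libraries at 60 h was the highest of its group for unc-54, unc-15, clp-1, itr-1 and unc-68. The part of muscle RNA or of transcript length in these differences was not tested.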

How the data were processed

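The authors deposited 1 table per library with, per the file headers, estimated counts, TPM and lengths for 36172 transcripts. The submitters' processing notes name kallisto 0.46.1 and WBcel235, with no role given. Transcripts were summed to genes with the Ensembl WBcel235 annotation (31502 matched by identifier, 4581 by sequence name, 89 unmatched). Gene sums were rounded.

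The test was edgeR 4.0.16 (R 4.3.3), quasi-likelihood, with TMM scaling, the filterByExpr filter and 4 group means, fitted once to all 12 libraries. Adjusted p-values are Benjamini-Hochberg over 16371 genes, and genes under 0.05 were called changed. Fold changes are log2, and positive values mean higher in the double mutant or at 60 h. On simulated counts for genotype at 60 h (16097 genes, 200 changed), edgeR found 89% of the 4-fold and 45% of the 2-fold changes, with 6.9% false calls. In the data 34.4% of genes were called in that comparison, so these shares need not hold for them.

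Alternatives were RLE scaling, 2 other count filters, DESeq2 1.42.0, a replicate term, a length offset, leaving out each library in turn and models of the 2 compared groups alone. Scaling to library size alone and limma 3.58.1 on log2(TPM + 0.5) were added after the data were seen. Fold changes on that last scale understate those of low genes.

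Members, gene lists and tests were chosen with earlier results of these data known. Values per library are given for members called at 52 h or in the interaction, for the 5 called members with the largest change at 60 h and in each time comparison, and for the 5 with the highest mean TPM. Sequences were not used here.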

Additional observations from a re-analysis of the deposited data

Results flagged for a closer look

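The strain difference of asp-9 was not the same at 52 h and 60 h. The genotype by time interaction, which tests that difference itself, was -2.29 on the log2 scale (SE 0.55, edgeR adjusted p = 0.0253). The strains differed by -0.28 at 52 h (adjusted p = 1.00) and by -2.57 at 60 h (adjusted p = 0.000515), with 27 to 86 counts per library at 52 h.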

How the results depend on the processing

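Over 2599 recomputed member values, 2452 kept their side of the threshold, 92 lost a call, 55 gained one and none of the called values changed direction. The number of members called ranged, over the 12 fits that each left out 1 library, from 0 to 3 for genotype at 52 h, 7 to 13 for genotype at 60 h, 17 to 20 for time in daf-2, 9 to 16 for time in the double mutant and 0 to 6 for the interaction. At 60 h it was 5 with only the 2 groups compared and 8 by limma on log2 TPM. For time in the double mutant it was 22 by limma on log2 TPM. For the interaction it was 8 by DESeq2 and 5 with the length offset. Scaling to library size alone moved the interaction's median over all genes to 0.14, and the members' median to 0.54. The cause of these shifts was not tested.

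The replicate numbers are not said to mark shared cultures, and the 18 correlations between deviations of same-numbered libraries ran from -0.627 to 0.408. All 3 exceeded 0.1 between the strains at 52 h (0.136 to 0.249) and over time in the double mutant (0.109 to 0.408), but not in the other comparisons. A library's best match in another group had its own number in 20 of 36 cases, where 1 in 3 is 12. With the replicate number as a block, the counts were 3, 13, 20, 18 and 0 in the order above, and the asp-9 interaction of -2.21 was not called. At 60 h the block lost cpr-9 and gained cpr-2 and cpr-8, and over time in the double mutant it gained asp-1, asp-2 and asp-8. Few counts limit the precision for rare members such as asp-17 and cpr-8.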
